A study of Mus musculus with 4 samples.

Results

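The genes described here are 38 genes of DNA replication and mitosis, chosen by name: 16 that act around S phase, when DNA is copied, and 22 that act in G2 and M phase, when the copies are separated. Each gene was read from the probe set annotated with its symbol alone, and with more than 1 such probe set from the one with the highest mean over the arrays. This gave 36 genes, 15 of S phase and 21 of G2 and M phase, of 22180 genes named in the table. Ccne2 lay only on a probe set listed with several symbols and Ccnb1 was not listed, so neither was analysed here. All 36 had a mean above 2.91 on the log2 scale, the 40th percentile of all probe sets, and so were among the 14652 genes tested.

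Expression was measured on 4 Affymetrix arrays of dendritic cells grown from bone marrow of C57BL/6 mice, a culture that turns dividing marrow precursors into antigen-presenting cells. On day 7 the cells were harvested and given DMSO alone (2 arrays) or 0.3 µM sulforaphane in DMSO (2 arrays) for 2 h, and both groups then received 100 ng/ml LPS, a bacterial activator of TLR4, for 1 h. Sulforaphane is a plant isothiocyanate known as an activator of NRF2, a transcription factor of antioxidant defence. The sources used here give neither the age nor the number of the mice, nor whether replicates were separate cultures. The p-values therefore measure only how far these 4 arrays spread, and that spread may be technical. No culture without LPS was analysed here. The question addressed is whether transcripts of the cell cycle differed between the treatments, and whether those of S phase differed from those of mitosis. In RNA of whole cultures, fewer dividing cells and less RNA per dividing cell cannot be told apart.

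Cell cycle genes are switched on in waves. E2F transcription factors, released from retinoblastoma family proteins late in G1, drive genes that license origins, build the replication fork and supply nucleotides. A later wave, controlled through the MuvB complex at CHR promoter elements, with B-MYB, FOXM1 and NF-Y at CCAAT boxes, supplies the cyclins, kinases and spindle proteins of mitosis. In resting cells the DREAM complex holds both waves down. Dendritic cells mostly stop dividing as they differentiate, so in marrow cultures these transcripts come with the cells still in cycle.

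The 2 sets of members were also set apart by their promoters, a property of sequence that the choice of members did not use. RefSeq promoters (GRCm38.p6, 250 bases before to 50 after a gene's start) were found for 13 S phase and 18 G2 and M phase members, among the latter Ccnb1, which has no array value here. The CHR letters TTTGAA, read on either strand, stood in 13 of 18 promoters of G2 and M phase members (72.2%) and in 1 of 13 of S phase members (7.69%), against 20.2% of 27025 genes with a promoter in the table. The E2F letters TTTCGCGC or TTTGGCGC, on either strand and counted where they overlap, stood in 4 of 13 S phase promoters (30.8%), in 1 of 18 of the others (5.56%) and in 0.929% of all genes. The CCAAT letters, on either strand, stood in 9 of 13 and 16 of 18 promoters, against 41.1% of all genes. Other genes of the same processes differed in the same way: CHR letters stood in 26 of 39 promoters of other mitosis genes and in 7 of 35 of other replication genes. A match is a description of letters, not a bound site. The stretches below lie before the annotated start of 7 members, 5′ to 3′ on the gene's strand. The CHR or E2F letters named for each are in capitals, and CCAAT letters are not marked. Cdk1 carried both CHR and E2F letters.
Mcm5 (E2F letters on both strands, overlapping, chr8:75109336-75109387, plus strand): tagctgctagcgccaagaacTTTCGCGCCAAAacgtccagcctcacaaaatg
Mcm6 (E2F letters on both strands, overlapping, chr1:128359784-128359835, minus strand): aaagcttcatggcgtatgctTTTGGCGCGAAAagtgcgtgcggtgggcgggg
Cdk1 (E2F letters, chr10:69353016-69353063, minus strand): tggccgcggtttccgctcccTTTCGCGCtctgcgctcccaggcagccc
Cdk1 (CHR letters, chr10:69352958-69353003, minus strand): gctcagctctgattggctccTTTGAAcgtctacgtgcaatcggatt
Mki67 (CHR letters at 2 places, chr7:135716452-135716515, minus strand): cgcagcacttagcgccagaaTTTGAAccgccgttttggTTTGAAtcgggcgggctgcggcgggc
Top2a (CHR letters, chr11:99024343-99024388, minus strand): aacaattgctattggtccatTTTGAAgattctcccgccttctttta
Ube2c (CHR letters on the other strand, chr2:164769880-164769925, plus strand): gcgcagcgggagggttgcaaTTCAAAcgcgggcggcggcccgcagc
Kif11 (CHR letters on the other strand, chr19:37376343-37376381, plus strand): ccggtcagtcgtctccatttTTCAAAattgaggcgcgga

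**Figure D1:**
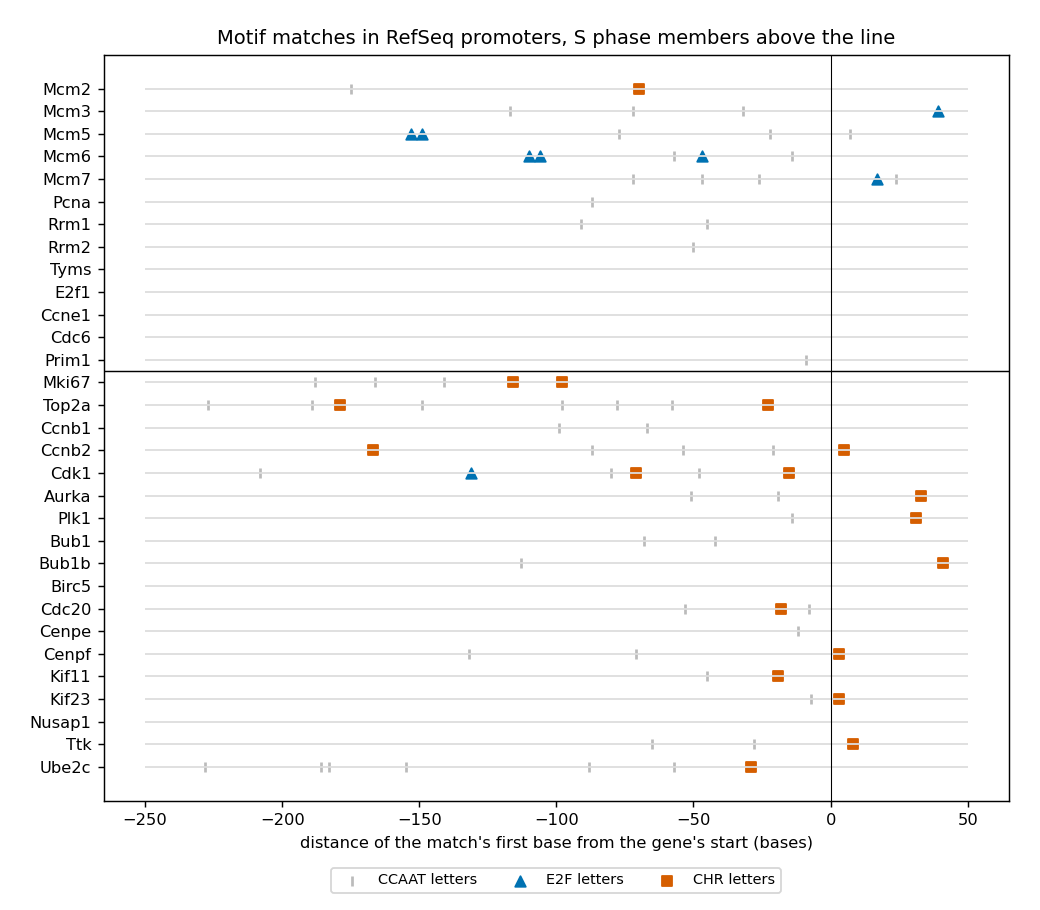
Each row is a member with a RefSeq promoter, and each symbol a motif match at its distance in bases from the gene's start (0; a gene with several starts has the matches of all its windows). CHR letters (squares) stand in 13 of the 18 rows below the line, G2 and M phase, and in 1 of the 13 above it, S phase; E2F letters (triangles) stand in 1 and 4 rows.

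In the arrays, no member passed the threshold in either direction. By limma with Benjamini-Hochberg adjustment over all 14652 genes, 0 of 36 members had an adjusted p under 0.05, where 19 genes (0.13%) did, 9 of them higher (0.0614%) and 10 lower (0.0683%) after sulforaphane, and 0 of 36 had an unadjusted p under 0.05, where 1899 genes (13.0%) did. The smallest adjusted p of a member was 0.464. The groups did not overlap in 11 of 36 members, 10 higher and 1 lower after sulforaphane, which is 30.6% of the members against 43.6% of all genes. In 35 of 36 members the difference was under 0.3 on the log2 scale in either direction, against 12277 of 14652 genes. No member reached 1.5-fold without overlap, which 2.81% of all genes did. The 95% intervals of 30 members stayed within 1.5-fold in both directions, against those of 10856 of 14652 genes. The bound farthest from 0 over all 36 was 1.77-fold, for Cenpe. The median difference of the members was 0.11 against 0.018 for all genes. Of the members 28 lay above 0 and 8 below, against 7938 and 6714 of all genes.

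**Figure D2:**
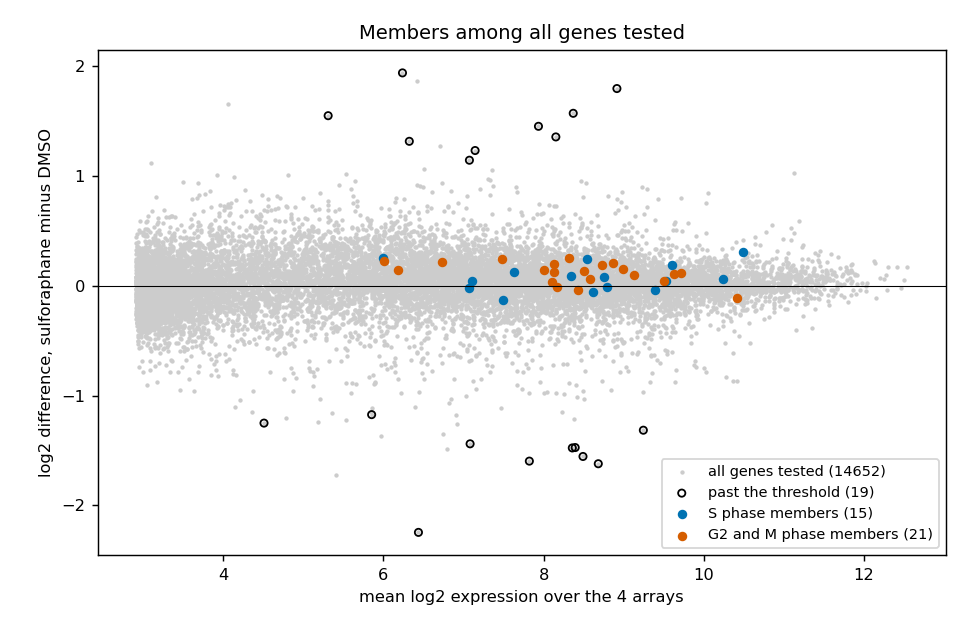
Each point is a gene: mean log2 expression over the 4 arrays against the log2 difference, sulforaphane minus DMSO, with the 36 members in colour and the 19 genes past the threshold ringed. The members lie between -0.13 and 0.30, among genes that were not called.

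DMSO replicate 1 stood apart from the other arrays, with an interquartile range of all probe sets of 3.41 on the log2 scale against 3.61 to 3.62 in the others. It held the lowest value of the 4 arrays in 26 of 36 members and in 5385 of 14652 genes. Without it the median difference over all genes was -0.00335. Medians of the 2 phases and of the other lists that move by over 1.5 times or change sign without it are also given without it below.

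Of the 15 S phase members 10 lay above 0 and 5 below, with a median difference of 0.058 and a range from -0.13 (Tyms) to 0.30 (Pcna). None had an adjusted p under 0.473. In 5 of them both sulforaphane arrays lay above both DMSO arrays, against 24.0% of all genes, and in 1 both lay below, against 19.5%. Pcna, the sliding clamp that holds DNA polymerase on its template, read 10.16 and 10.53 in the DMSO arrays and 10.67 and 10.62 in the sulforaphane arrays. The sulforaphane arrays were higher without overlap, but the DMSO arrays differed from each other by 0.37, more than the difference between the groups (0.30 ± 0.15 SE, 95% interval -0.065 to 0.67, n = 2 per group, adjusted p = 0.473 by limma).

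The 6 subunits of the MCM helicase, the ring that opens DNA at the fork, had differences between -0.057 and 0.24 with a median of 0.068. Mcm7 read 8.26 and 8.60 in DMSO and 8.76 and 8.57 after sulforaphane, and its groups overlapped (0.24 ± 0.15 SE). Mcm4 read 9.38 and 9.64 against 9.67 and 9.73 (0.19 ± 0.13), without overlap, with DMSO replicate 1 apart from 3 arrays that lay close together. Mcm2, often used as a marker of cells licensed to replicate, read 8.75 and 8.69 against 8.78 and 8.82, without overlap. Its difference was 0.078, with an interval of -0.18 to 0.34. Mcm5 (0.058), Mcm6 (-0.0088) and Mcm3 (-0.057), which belong to the same ring, differed by less. The intervals of 5 of the 6 subunits stayed within 1.5-fold, all but that of Mcm7 (-0.14 to 0.61).

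Among the other proteins of the fork, Prim1, the catalytic subunit of primase, read 5.60 and 6.13 in DMSO and 6.23 and 5.99 after sulforaphane. Its groups overlapped, and its DMSO arrays were 0.53 apart, against a difference between groups of 0.25 ± 0.20 SE. Gins2, a subunit of the GINS complex that activates the helicase, differed by 0.091, and Cdc6, which loads the helicase on origins, by 0.044.

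Of the genes that supply nucleotides, Tyms, thymidylate synthase, was the S phase member whose sulforaphane arrays lay below both DMSO arrays: 7.57 and 7.53 in DMSO and 7.43 and 7.42 after sulforaphane. The difference was small (-0.13 ± 0.10 SE, interval -0.38 to 0.13, adjusted p = 0.682 by limma). Rrm1 and Rrm2, the large and small subunits of ribonucleotide reductase, differed by 0.046 and -0.042. The sign of Rrm2 turned with the mean of its 2 probe sets (0.068).

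The regulators of entry into S phase showed no larger shift. E2f1, the transcription factor that starts this wave, read 7.57 and 7.56 in DMSO and 7.66 and 7.72 after sulforaphane, arrays that did not overlap but differed by only 0.13 ± 0.11 SE (adjusted p = 0.692 by limma). Ccne1, cyclin E1, which activates CDK2 at the start of S phase, differed by -0.021, with an interval from -0.49 to 0.45.

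**Figure D3:**
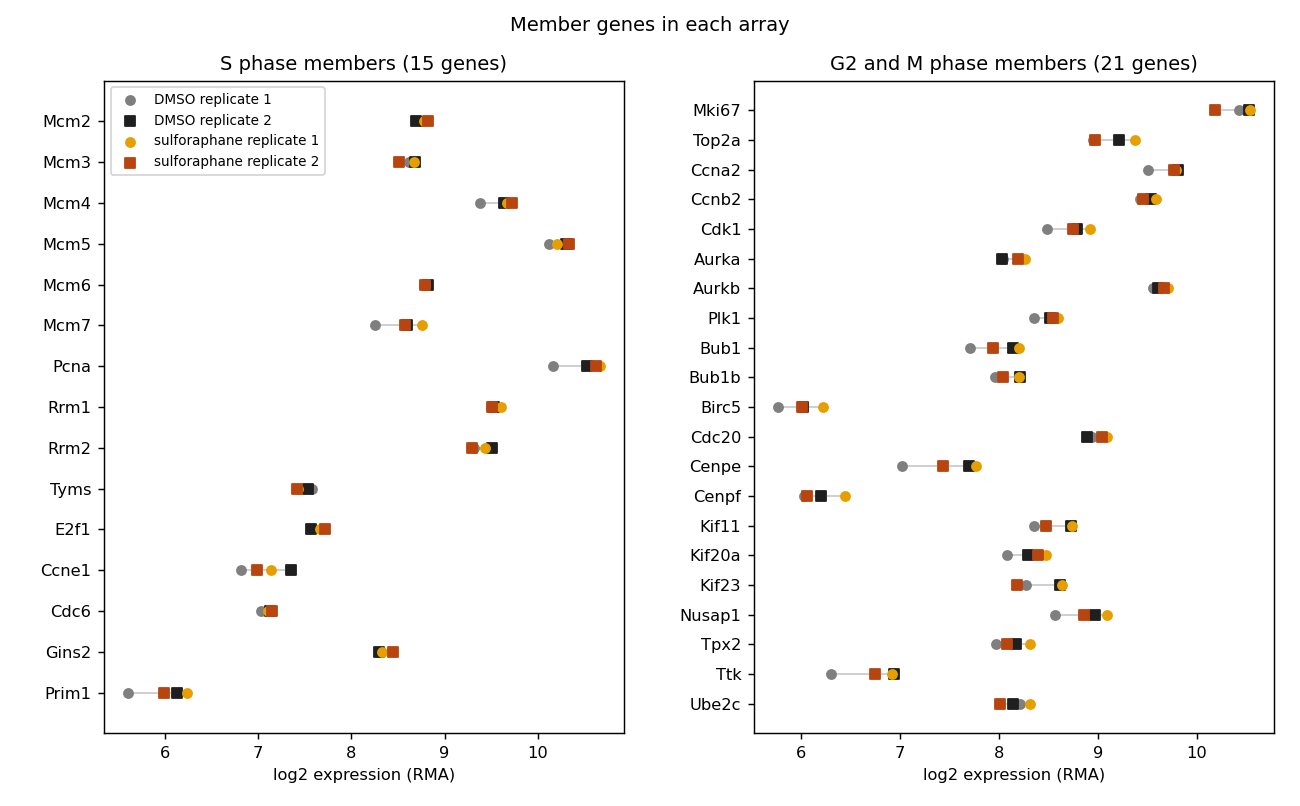
Log2 expression of each member (rows) in each of the 4 arrays (points), S phase on the left and G2 and M phase on the right. DMSO replicate 1 (grey circles) is the lowest array in 10 of 15 S phase and 16 of 21 G2 and M phase members, and sulforaphane replicate 1 (light circles) the highest in 4 of 15 and 18 of 21.

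Of the 21 G2 and M phase members 18 lay above 0 and 3 below, with a median difference of 0.13 and a range from -0.11 (Mki67) to 0.25 (Kif20a). None had an adjusted p under 0.464. In 5 members the sulforaphane arrays lay above the DMSO arrays without overlap, against 24.0% of all genes, and in 0 below.

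The standard markers of dividing cells among them, Mki67, Top2a and Cdk1, overlapped between the groups. Those of S phase, Pcna and Mcm2, were higher without overlap, as were 24.0% of all genes. Mki67, the nuclear protein Ki-67 that coats mitotic chromosomes, read 10.43 and 10.53 in DMSO and 10.54 and 10.18 after sulforaphane, so that the sulforaphane arrays held both the highest and the lowest value (-0.11 ± 0.15 SE, interval -0.48 to 0.25). Top2a, the topoisomerase that untangles sister chromatids, read 8.95 and 9.21 against 9.38 and 8.97, a difference of 0.093 with an interval of -0.34 to 0.52. Cdk1, the kinase that drives entry into mitosis, read 8.49 and 8.79 against 8.92 and 8.74 (0.19 ± 0.14). For Mki67 and Top2a the gap between the sulforaphane arrays (0.36 and 0.41) was larger than the difference between the groups. The cyclin partners of Cdk1 differed little: Ccna2, cyclin A2, which is present from S phase on, by 0.12, and Ccnb2, cyclin B2, by 0.041.

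Among the mitotic kinases, Aurka, which matures the spindle poles, read 8.04 and 8.03 in DMSO and 8.26 and 8.20 after sulforaphane. Its arrays did not overlap and each group was tight, yet the difference of 0.19 ± 0.11 SE had an interval of -0.066 to 0.45 and an adjusted p of 0.519 by limma. Aurkb (0.11), which corrects chromosome attachment, and Plk1 (0.13), which acts from mitotic entry to cytokinesis, were also higher without overlap, with intervals that held 0. The kinases of the spindle checkpoint, Bub1 (0.14), Bub1b (0.037) and Ttk (0.21), overlapped, and in Ttk the DMSO arrays were 0.64 apart.

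Of the genes that carry chromosomes and the spindle, Kif20a, a kinesin of cytokinesis, had the smallest unadjusted p of all members (0.0854). It read 8.08 and 8.29 in DMSO and 8.48 and 8.40 after sulforaphane, without overlap (0.25 ± 0.12 SE, interval -0.048 to 0.55, adjusted p = 0.464 by limma). Kif11 (0.064), the kinesin that separates the spindle poles, and Kif23 (-0.039), of the central spindle, did not share that difference in size. Nusap1, which bundles spindle microtubules, read 8.57 and 8.97 against 9.09 and 8.86, with overlap (0.20 ± 0.17), and Tpx2, the activator of Aurka on the spindle, differed by 0.13. The kinetochore proteins Cenpe (0.24) and Cenpf (0.14) overlapped as well; the DMSO arrays of Cenpe were 0.67 apart, the widest gap between replicates among the members.

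Birc5, survivin, a partner of Aurkb, read 5.76 and 6.01 in DMSO and 6.22 and 6.01 after sulforaphane (0.23 ± 0.14 SE, interval -0.12 to 0.57). Its second sulforaphane array lay just below the higher DMSO array. Cdc20, which switches on the ubiquitin ligase APC/C at anaphase, read 8.94 and 8.89 against 9.09 and 9.04, without overlap (0.15 ± 0.11). Ube2c, the ubiquitin-conjugating enzyme of the same ligase, differed by -0.013, with groups that overlapped.

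**Figure D4:**
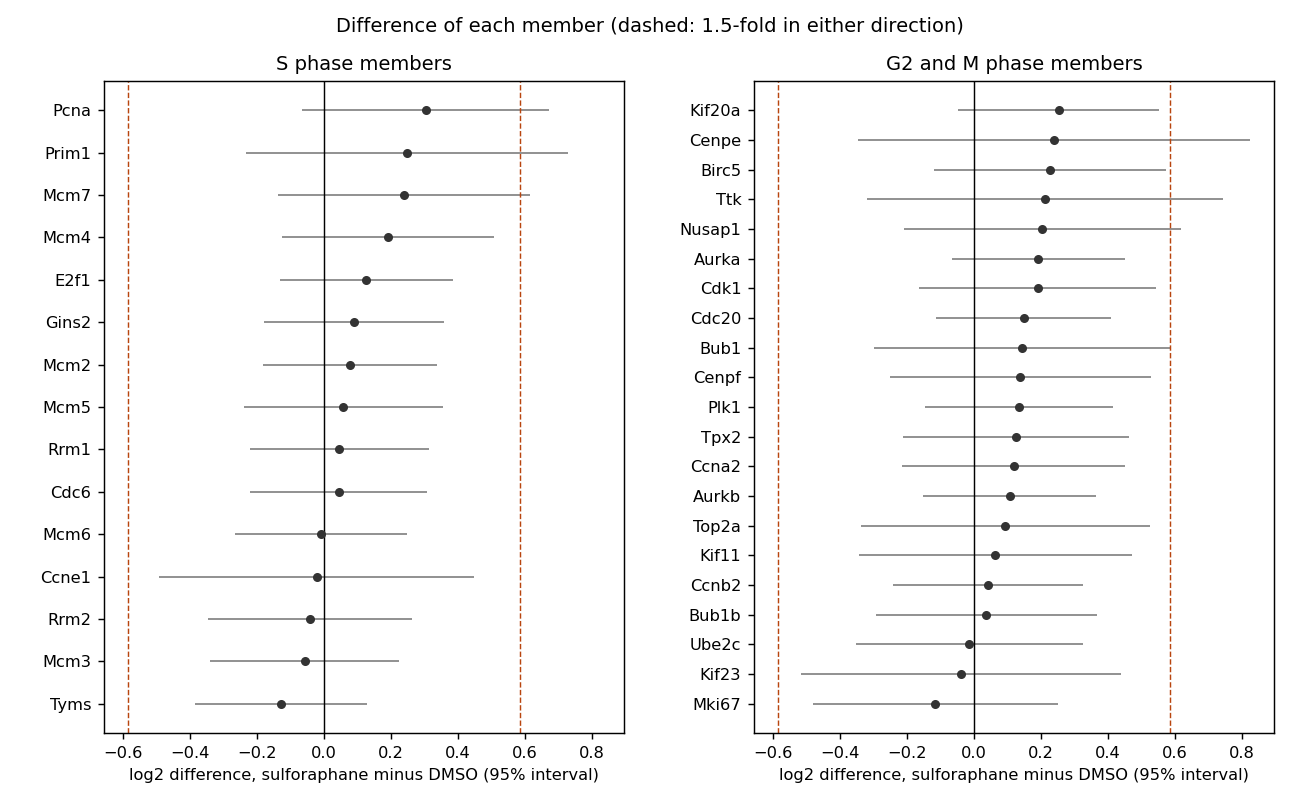
Log2 difference of each member, sulforaphane minus DMSO, with its 95% moderated interval; dashed lines mark 1.5-fold. All 36 intervals hold 0, and 12 of 15 S phase and 18 of 21 G2 and M phase intervals lie within the dashed lines.

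The G2 and M phase members varied together between replicates of a treatment: sulforaphane replicate 2 read lower than sulforaphane replicate 1 in 21 of 21 (median -0.21), and DMSO replicate 2 higher than DMSO replicate 1 in 18 of 21 (median 0.25). The medians of the same gaps over all genes were 0.011 and 0.042. The S phase members varied less, with medians of -0.011 between the sulforaphane arrays and 0.092 between the DMSO arrays. How much of this is dividing cells and how much is the array was not tested.

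The direction depended in part on which arrays were set against each other. For the G2 and M phase members the median difference was 0.36 for sulforaphane replicate 1 over DMSO replicate 1 (21 of 21 higher) and -0.11 for sulforaphane replicate 2 over DMSO replicate 2 (5 of 21 higher). The remaining comparisons lay above 0 (18 of 21 higher in each). They were 0.10 for sulforaphane replicate 1 over DMSO replicate 2 and 0.12 for sulforaphane replicate 2 over DMSO replicate 1. Thus 3 of 4 medians were positive, but the 4 comparisons share arrays and are not independent of each other. For the S phase members the 4 medians, in the same order, were 0.093 (14 of 15 higher), -0.021 (7 of 15), 0.028 (8 of 15) and 0.15 (12 of 15). Without DMSO replicate 1 the median difference between the treatments was 0.0037 for G2 and M phase and -0.0019 for S phase, and 12 of 36 members changed sign. Without DMSO replicate 2 the medians were 0.228 and 0.0935, without sulforaphane replicate 1 they were 0.0732 and 0.0983, and without sulforaphane replicate 2 they were 0.224 and 0.0548. S phase and G2 and M phase members differed by -0.076 in their medians (S phase minus G2 and M phase). Leaving out an array in turn moved that value between -0.169 and 0.0251, on both sides of 0, and no test was made of it.

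**Figure D5:**
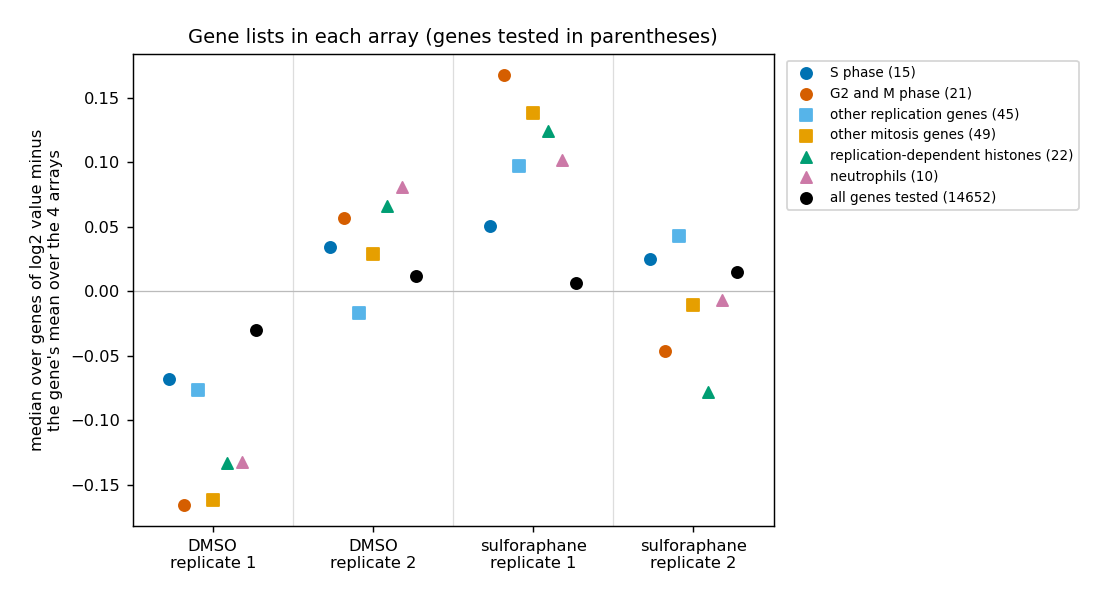
For each array (columns), the median over the genes of a list of the log2 value minus that gene's mean over the 4 arrays. The G2 and M phase members read -0.17 and 0.057 in the DMSO arrays (replicates 1 and 2) and 0.17 and -0.046 in the sulforaphane arrays, a wider spread than the S phase members, which lie between -0.068 and 0.051.

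Other genes of the same processes also held 0 genes past the threshold. An unadjusted p under 0.05 by limma was found for 6 of 45 replication and 6 of 49 mitosis genes, against 13.0% of all genes. Of the 45 other replication genes tested 32 lay above 0 (median 0.138), and 22 were higher without overlap, against 5 of the 15 S phase members and 24.0% of all genes. A further 7 were lower without overlap, against 1 of the 15 S phase members and 19.5% of all genes. The median of the other replication genes was 0.0902 without DMSO replicate 1, where that of the S phase members was -0.0019. Of the 49 other mitosis genes 41 lay above 0 (median 0.133). Without overlap 18 were higher and 5 lower, against 24.0% and 19.5% of all genes and 5 and 0 of the 21 G2 and M phase members. Their median was 0.0457 without DMSO replicate 1 and 0.0601 without sulforaphane replicate 1. It was 0.212 without DMSO replicate 2 and 0.228 without sulforaphane replicate 2. The other mitosis genes varied between replicates as the members did, with medians of -0.15 between the sulforaphane arrays and 0.16 between the DMSO arrays. Among replication genes the smallest p belonged to Exo1, an exonuclease of repair (0.40 ± 0.11 SE), and to Cdc7 (0.49 ± 0.14), the kinase that fires origins. Wdr76 (0.38 ± 0.12) and Dbf4 (0.55 ± 0.20), the activating subunit of Cdc7, came next. Their adjusted p was 0.208, 0.258, 0.281 and 0.336 by limma, and in all 4 the sulforaphane arrays lay above the DMSO arrays.

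Gas2l3, which links actin and microtubules in cytokinesis, had the largest difference of the mitosis genes. It read 8.75 and 8.96 in DMSO and 9.71 and 9.75 after sulforaphane, a gap between groups several times that within them (0.88 ± 0.12 SE, 1.84-fold, interval 0.58 to 1.18). Its adjusted p of 0.0600 by limma missed the threshold, and it passed with the filter at the 60th percentile (0.0324), a second quantile normalization (0.0409) and an intensity trend (0.00577). Kif2c, a kinesin that takes microtubules apart (0.37 ± 0.11), and the kinetochore genes Spc24 (0.34 ± 0.11) and Cenpa (0.31 ± 0.11) followed, with adjusted p-values of 0.268 to 0.323.

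Of the regulators upstream of both waves, Ccnd1, cyclin D1, the growth factor-induced partner of CDK4 and CDK6, read 8.76 and 8.65 in DMSO and 8.23 and 8.24 after sulforaphane. It was lower without overlap (-0.47 ± 0.11 SE, interval -0.74 to -0.20, adjusted p = 0.179 by limma). Ccnd3 (-0.23), Cdk6 (-0.21) and the other 7 genes of G1 cyclins and kinases did not pass either (median 0.011). Of 10 CDK inhibitors and pocket proteins, which restrain the cycle, 0 passed (median 0.064); the largest difference was that of Cdkn2b, the CDK4 and CDK6 inhibitor p15, at 7.01 and 6.94 against 7.32 and 7.46 (0.42 ± 0.11, adjusted p = 0.225). Of 14 E2F and DREAM factors 0 passed and 10 lay above 0 (median 0.15), among them the MuvB subunits Lin52 (0.42 ± 0.13) and Lin37 (0.33 ± 0.12) and the repressor E2f6 (0.39 ± 0.14), with adjusted p-values from 0.261 to 0.328. These list medians moved with single arrays: without DMSO replicate 1 they were -0.0726 for G1 cyclins and kinases, 0.0059 for the inhibitors and 0.0734 for the E2F and DREAM factors, and without DMSO replicate 2 they were 0.08, 0.0302 and 0.22. The G1 median was also -0.00196 without sulforaphane replicate 1, and -0.0302 with a second quantile normalization. The unadjusted p by limma was under 0.05 for 1 of 10 G1 cyclins and kinases, 1 of 10 inhibitors and 3 of 14 E2F and DREAM factors. Over all genes that share was 13.0%.

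Replication-dependent histones have transcripts made in S phase and near-identical copies that share probes. They were listed by the names of the histone gene clusters, so the list also holds pseudogene names such as H2bu1-ps. It had 30 symbols, of which 22 were tested. Of these 11 lay above 0 and 11 below (median 0.0054), and 0 passed by limma, with 0 at an unadjusted p under 0.05, against 13.0% of all genes. That median ran from -0.0783 without sulforaphane replicate 1 (-0.0469 without DMSO replicate 1) to 0.141 without DMSO replicate 2 (0.139 without sulforaphane replicate 2). Between replicates they moved like the G2 and M phase members, with medians of -0.14 between the sulforaphane arrays and 0.21 between the DMSO arrays. Measured by array, the histone list and the mitosis lists were thus low in DMSO replicate 1 and high in sulforaphane replicate 1, while the S phase members spread less.

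Markers of other cells that the culture could hold were read on the same arrays. All 11 named dendritic cell markers were above the filter, among them Itgax (CD11c) at 11.26 to 11.33 and H2-Ab1 at 11.37 to 11.81. Of these 6 lay above 0 and 5 below. Itgax (0.066), H2-Ab1 (0.26) and H2-Aa (0.16) were higher without overlap, as were 24.0% of all genes. Irf4, Batf3 (-0.64), Flt3 (-0.42), Zbtb46 (-0.34) and Irf8 (-0.21) were lower without overlap, as were 19.5% of all genes. The median difference of the 11 markers was 0.024. It changed sign without DMSO replicate 1 (-0.156), sulforaphane replicate 1 (-0.154) or sulforaphane replicate 2 (-0.0224). Within the list Irf4, a factor of dendritic cell development, read 10.05 and 10.10 in DMSO and 9.24 and 9.17 after sulforaphane (-0.87 ± 0.11 SE, adjusted p = 0.0565 by limma). It passed with the filter at the 60th percentile (0.0284), a second quantile normalization (0.0336) and an intensity trend (0.00383). Neutrophil markers (10 of 10 tested, median 0.044) varied between replicates in the same direction as the G2 and M phase members, with medians of -0.12 between the sulforaphane arrays and 0.18 between the DMSO arrays. Their median difference was -0.0191 without DMSO replicate 1, 0.0271 without sulforaphane replicate 1, 0.108 without DMSO replicate 2 and 0.165 without sulforaphane replicate 2. Their summed linear level was 8279 to 9732 in DMSO and 8911 to 9942 after sulforaphane. Early progenitor markers (10 of 10, median 0.014), which mark the dividing stages, summed to 2940 to 3031 and 2788 to 3145, with medians of 0.24 between the sulforaphane arrays and 0.064 between the DMSO arrays, and so did not follow the mitosis genes between the sulforaphane arrays. The progenitor list shares Mpo and Elane with the neutrophil list and Flt3 with the dendritic cell list. With sulforaphane replicate 1 left out the median difference of the progenitor markers was 0.133, and with replicate 2 of that group left out -0.153. With DMSO replicates 1 and 2 left out in turn it was -0.0154 and 0.0588. Within that list Myb, a transcription factor of cycling progenitors, read 8.17 and 7.95 in DMSO and 7.17 and 7.40 after sulforaphane (-0.78 ± 0.14 SE, adjusted p = 0.106 by limma, and 0.0251 with an intensity trend).

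Macrophage and monocyte markers (10 of 12 names, median -0.11) summed to 11780 to 12220 in DMSO and 11080 to 11130 after sulforaphane, and mast cell and basophil markers (7 of 10, median -0.070) to 2130 to 2136 and 1893 to 2057. Of the erythroid list 2 genes were tested (median -0.39, summed level 392.1 to 402.9 and 242.0 to 250.8), led by Car2 (-0.71 ± 0.11 SE, adjusted p = 0.0745 by limma), which passed with the filter at the 60th percentile (0.037), a second quantile normalization (0.046) and an intensity trend (0.0097). Car2 read 7.87 to 8.62 over the arrays and Gata1, the other tested gene, 3.04 to 3.62, so the summed level was mostly that of Car2. Gata1 differed by -0.064, and Klf1 and Ermap lay below the filter. The erythroid median was -0.0299 with no filter, -0.713 with the filter at the 60th percentile and -0.237 without sulforaphane replicate 1. T and NK cell markers (3 of 9 names tested, median -0.13) summed to 31.8 to 32.7 and 29.9 to 31.1. Those tested were Cd3e, Cd4 and Cd8a, while Cd3d, Cd3g, Ncr1 and Klrb1c lay below the filter. B cell markers (3 of 7, median -0.27) summed to 41.1 to 46.2 and 30.4 to 44.8. Those tested were Cd79a, Cd79b and Pax5, while Ms4a1, Ebf1 and Cr2 lay below the filter. The B cell median was -0.0482 with no filter, -0.1 with the filter at the 60th percentile, -0.00684 without sulforaphane replicate 1 and -0.53 without sulforaphane replicate 2. Leaving out sulforaphane replicate 2 gave a macrophage and monocyte median of -0.0649. The mast cell and basophil median was -0.131 without DMSO replicate 2 and -0.221 without sulforaphane replicate 2. The T and NK cell median was -0.0817 without DMSO replicate 1 and -0.0703 without sulforaphane replicate 1. With the filter at the 40th percentile and no alternative setting, 0 genes of the marker lists passed the threshold by limma. Irf4, Car2 and Myb passed under the alternatives given. An unadjusted p under 0.05 by limma, which 13.0% of all genes had, was found for 4 of 11 dendritic cell and 3 of 10 early progenitor markers. It was found for 2 of 10 macrophage and monocyte, 2 of 7 mast cell and basophil, 1 of 2 erythroid and 1 of 3 B cell markers. Neutrophil and T and NK cell markers held 0, and some genes were on more than 1 list. The part of these cells in the values of the members was not tested.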

How the data were processed

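The authors deposited log2 expression values per probe set. They were made with RMA, and the submitters' processing notes name R 2.15.1. The log base was read from the method and the range of values. No source used here gives a filter. Of 41345 probe sets, 23521 had 1 gene symbol in the platform annotation, 1814 had several and 16010 were not listed. Of those with 1 symbol, 23328 matched RefSeq names of GRCm38.p6 by Entrez identifier. Other lists were matched by symbol or a synonym. The difference between treatments was fitted with limma 3.58.1 in R 4.3.3 (lmFit, eBayes, 2 residual and 4.02 prior degrees of freedom), adjusted by Benjamini-Hochberg with a threshold of 0.05, and tested on simulated data. In 5 simulated runs with independent genes and 2 arrays per group, the fit called 2.4% of planted 1.5-fold changes and 69.6% of 2-fold changes. A 1.5-fold change would thus seldom pass the threshold. The number of arrays limits the precision.

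Array values are given in full for the 6 members of each phase with the smallest p and for standard markers of cycling, (Mki67, Top2a, Cdk1, Mcm2 and Pcna), and up to 4 genes with the smallest p are named per other list, beside defining markers of cell types. The members and lists were chosen with earlier results of these data known.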

Additional observations from a re-analysis of the deposited data

How the results depend on the processing

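No member passed the threshold under any of the alternatives run, and the smallest adjusted p of a member lay between 0.152 (without DMSO replicate 2) and 0.809. The count over all genes was less stable: 138 with the filter at the 60th percentile, 106 with a second quantile normalization (34 higher and 72 lower, against 9 and 10), 34 with the mean of probe sets (11 and 23) and 249 with an intensity trend (96 and 153). It was 0 without any single array, when 1036 to 2850 genes had an unadjusted p under 0.05; the cause was not tested. Leaving out an array in turn gave medians of -0.0019 to 0.0983 for S phase, 0.00373 to 0.228 for G2 and M phase and -0.169 to 0.0251 for their difference. With the replicate number as a block 8 genes passed (4 and 4) and no member did. Same-numbered arrays did not deviate together (correlation -0.0808 over 14652 genes), so the numbers were not taken as pairs. Moving Ccna2 to the S phase members gave medians of 0.068 and 0.136. Median centring and a second quantile normalization each changed the sign of 2 members, all with differences under 0.05. At the 60th percentile no T and NK cell marker was left. The 2 arrays per group limit the precision of every value.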
